A study of Homo sapiens with 8 samples.

Results

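Nuclear genes for the subunits of oxidative phosphorylation were followed in D283-OMO cells, a human medulloblastoma line carrying an inducible MYC inhibitor. Members were chosen by symbol among the protein-coding genes of GENCODE 29. The symbols taken were NDUFA, NDUFB, NDUFC, NDUFS or NDUFV followed by a number, SDHA to SDHD, names starting with UQCR, CYC1, CYCS, the COX5 to COX8 series, and names starting with ATP5F1, ATP5M, ATP5P or ATP5IF. In all, 142 symbols matched, 56 of them pseudogenes that were set aside, which gave 86 members among 60668 genes in the files. Complex I had 36 members, complex II 4, complex III 10, complex IV 15 with NDUFA4 counted there, and complex V (ATP synthase) 20, and CYCS stood for cytochrome c.

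The cells were D283 Med, an established line, transduced with a lentivirus that carries a Flag-tagged OMOMYC transgene under a DOX-inducible promoter, and selected with hygromycin. Both groups carried the transgene. The OMO group was 4 untreated libraries, and the OMO+DOX group was 4 libraries from cells given 0.25 µg/mL doxycycline (DOX), with OMOMYC induced for 72 h. OMOMYC is a dominant-negative mini-protein derived from MYC that dimerizes in place of MYC. The methods describe the replicates as independent, and whether the transduced line was a single clone is not given in the sources used here. DOX is a tetracycline, a class known to inhibit protein synthesis on mitochondrial ribosomes, and no DOX-treated library without the transgene was analysed here. The paper used DOX-treated wild-type cells for counts of viable cells, which DOX did not lower, and for qRT-PCR of chosen noncoding RNAs. It describes RNA-Seq of D283-OMO cells only. The effects of OMOMYC and of DOX on the members therefore cannot be told apart in these libraries.

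Values are RSEM expected counts per gene from polyA+ RNA, given as CPM (counts scaled to a common library size) after TMM normalization. Totals ran from 38390649 to 54020451 counts per library. OMOMYC acts on MYC protein, for which the paper reports a strong fall with DOX by Western blot. MYC RNA ranged from 880 to 1049 CPM in OMO and from 1047 to 1179 CPM in OMO+DOX. Reads of the transgene, which is made from MYC sequence, may be counted in that RNA. Of 6 markers of group 3 medulloblastoma, 6 were above the low-count limit. With DOX, 4 of them were lower (IMPG2 with a log2FC of -3.01, NPR3 -2.57, GABRA5 -1.75 and OTX2 -1.04) and 2 were higher (MYC 0.26 and EYS 0.23), and the part of this in the members' values was not tested. Of 8 markers of other cell types only COL1A1 passed that limit, at 22.1 and 23.4 CPM, while the other 7 had at most 34 counts in any library. OMO replicate 3 stood apart from its group. The members' median deviation from the group mean was 0.20 on the log2 scale in it and between -0.11 and 0.00 in the other OMO libraries, and 78 of 81 tested members were highest there among the OMO libraries. The counts of members called and not overlapping, overall and by complex, are given with and without it.

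Oxidative phosphorylation is carried out by protein complexes of the inner mitochondrial membrane. Complexes I and II pass electrons from NADH and succinate to ubiquinone, complex III passes them on to cytochrome c, and complex IV delivers them to oxygen. Complexes I, III and IV pump protons as they do so, and complex V uses the returning protons to make ATP. Most subunits are encoded in the nucleus and imported, while a small set at the core of complexes I, III, IV and V is encoded by mitochondrial DNA (mtDNA). MYC is known for driving genes of mitochondrial biogenesis in growing cells.

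More nuclear subunit genes were higher than lower with DOX. By edgeR's quasi-likelihood test at an adjusted p below 0.05, 49 of the 81 members tested were higher, 9 were lower and 23 were not called. Among all 15222 genes tested, 38.5% were called higher and 38.1% lower, 76.6% in all, so that a call by itself was common in these libraries. The median log2FC of the members was 0.27, against 0.01 over all genes tested, and 62 of 81 members had a log2FC above 0. Without OMO replicate 3, 54 members were higher and 9 lower (39.7% and 39.4% of all genes), and the median was 0.33. With an absolute log2FC above 0.5 in addition, 21 members were higher and 4 lower, where 22.3% and 21.8% of all genes met the same rule, and without OMO replicate 3 these were 27 and 3 members (21.6% and 21.7% of all genes). None of the 81 members met the published rule as the paper's methods give it (FDR below 0.001 and absolute log2FC above 2), which 7.12% of all genes did. The paper's results give the FDR limit as 0.01 instead, and no member had an absolute log2FC above 2. The 2 groups of libraries did not overlap for 48 members, 40 of them higher and 8 lower with DOX, where 71.7% of all genes did not overlap (36.3% higher and 35.4% lower). Without OMO replicate 3, 54 were higher and 8 lower without overlap, where 39.0% and 38.6% of all genes were. Changes were moderate, from a fall by 1.03 on the log2 scale (NDUFC2) to a rise of 1.31 (UQCRFS1), and 4 members moved by an absolute log2FC of 1 or more. By complex, the members called higher and lower without OMO replicate 3 were 22 and 4 for complex I, 3 and 0 for II, 7 and 1 for III, 10 and 1 for IV, and 11 and 3 for V. Members without overlap were 17 of 36 for complex I, 3 of 4 for II, 5 of 10 for III, 8 of 11 for IV and 14 of 19 for V. Without OMO replicate 3 these were 25, 3, 7, 11 and 15, where 77.6% of all genes did not overlap.

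**Figure D1:**
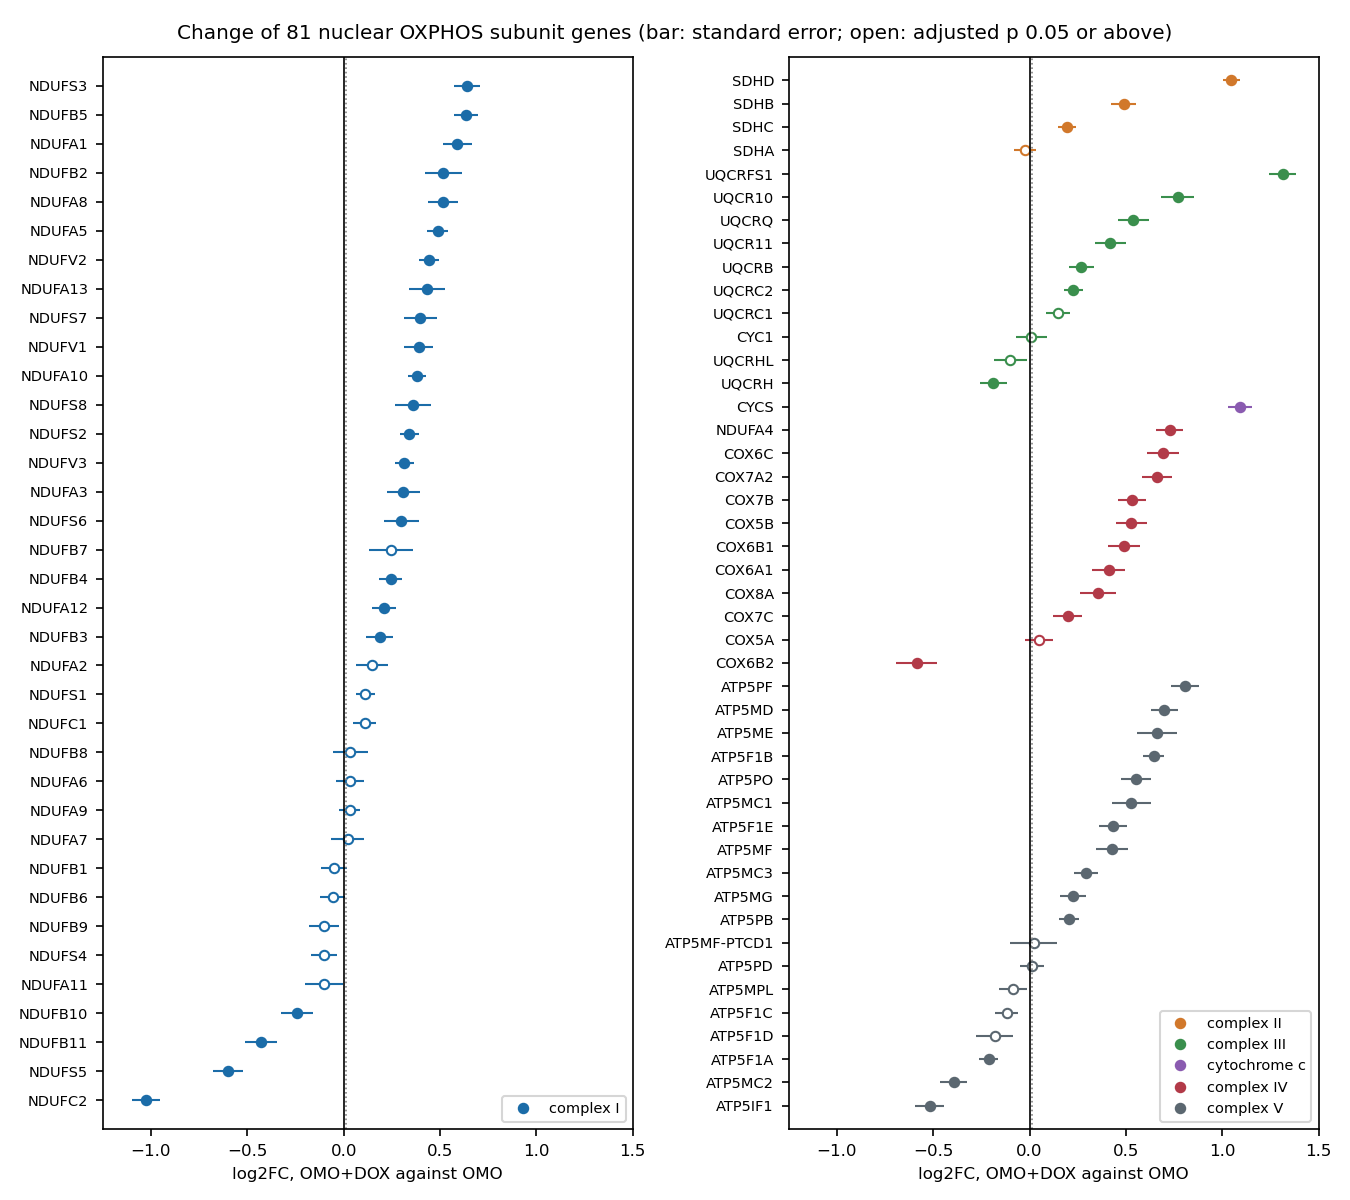
log2FC (OMO+DOX against OMO, horizontal axis) of the 81 members tested, ordered within each complex, with bars for the standard error. Filled points passed an adjusted p of 0.05, open points did not, and the dotted line marks the median of all genes at 0.01. Most points lie to the right of that line, with UQCRFS1, CYCS and SDHD farthest right and NDUFC2 farthest left.

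The promoter windows of the members that rose most and of members that fell are printed here because the members moved in both directions within one pathway. RefSeq windows on GRCh38.p14, from 250 bases before to 50 bases from the start of transcription, were found for 68 of the 86 members. Capitals mark matches, on either strand, to the letters of an E-box (CACGTG, bound by MYC with MAX), of NRF1 (GCGCA, any base, then GCGC), of ETS factors such as GABPA (CCGGAAG), of YY1 (AAGATGGCG) and of estrogen-related receptors (TNAAGGTCA). The last of these was added after the values of ESRRA were seen. UQCRFS1, CYCS and SDHD had the largest rises, and COX6B2, ATP5IF1 and NDUFB11 the largest falls among members with a window. UQCR11, a complex III subunit called higher, was added after the matches were seen, for its matches to 3 kinds of motif. SDHD and ATP5ME also matched 3 kinds.
UQCRFS1, chr19:29213102-29213401, minus strand: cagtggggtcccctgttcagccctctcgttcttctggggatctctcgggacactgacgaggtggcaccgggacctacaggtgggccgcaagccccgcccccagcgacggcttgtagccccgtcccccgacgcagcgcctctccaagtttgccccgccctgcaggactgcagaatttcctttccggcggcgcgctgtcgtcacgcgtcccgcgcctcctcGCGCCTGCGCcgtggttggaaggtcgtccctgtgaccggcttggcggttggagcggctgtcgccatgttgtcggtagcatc
CYCS, chr7:25125211-25125510, minus strand: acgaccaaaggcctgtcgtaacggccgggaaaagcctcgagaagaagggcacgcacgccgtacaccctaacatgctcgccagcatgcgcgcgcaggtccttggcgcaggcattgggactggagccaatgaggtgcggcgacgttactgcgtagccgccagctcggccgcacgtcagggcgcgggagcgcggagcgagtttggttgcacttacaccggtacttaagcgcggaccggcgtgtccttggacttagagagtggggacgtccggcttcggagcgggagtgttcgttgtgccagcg
SDHD, chr11:112086623-112086922, plus strand: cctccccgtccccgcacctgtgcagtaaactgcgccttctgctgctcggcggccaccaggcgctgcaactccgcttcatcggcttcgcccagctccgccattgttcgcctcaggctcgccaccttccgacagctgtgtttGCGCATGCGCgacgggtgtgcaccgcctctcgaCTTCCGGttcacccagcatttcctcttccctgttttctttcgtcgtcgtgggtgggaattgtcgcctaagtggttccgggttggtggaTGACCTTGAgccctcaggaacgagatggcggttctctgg
COX6B2, chr19:55354670-55354969, minus strand: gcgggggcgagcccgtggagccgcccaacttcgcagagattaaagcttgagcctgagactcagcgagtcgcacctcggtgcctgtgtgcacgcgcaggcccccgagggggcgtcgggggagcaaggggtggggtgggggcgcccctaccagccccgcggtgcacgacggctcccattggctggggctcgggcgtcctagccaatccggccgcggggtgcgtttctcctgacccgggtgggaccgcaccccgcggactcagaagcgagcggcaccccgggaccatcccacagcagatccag
ATP5IF1, chr1:28235874-28236173, plus strand: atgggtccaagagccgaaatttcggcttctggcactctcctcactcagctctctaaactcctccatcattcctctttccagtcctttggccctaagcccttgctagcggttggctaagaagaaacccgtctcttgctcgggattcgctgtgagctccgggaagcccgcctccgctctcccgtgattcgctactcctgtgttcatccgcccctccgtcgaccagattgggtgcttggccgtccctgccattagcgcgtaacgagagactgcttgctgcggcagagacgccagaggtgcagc
NDUFB11, chrX:47144653-47144952, minus strand: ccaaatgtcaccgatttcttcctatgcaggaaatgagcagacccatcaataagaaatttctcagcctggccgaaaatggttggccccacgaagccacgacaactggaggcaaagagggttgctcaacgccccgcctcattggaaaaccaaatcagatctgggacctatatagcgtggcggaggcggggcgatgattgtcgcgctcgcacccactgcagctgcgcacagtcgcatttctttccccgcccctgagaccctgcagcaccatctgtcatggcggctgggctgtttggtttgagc
UQCR11, chr19:1605413-1605712, minus strand: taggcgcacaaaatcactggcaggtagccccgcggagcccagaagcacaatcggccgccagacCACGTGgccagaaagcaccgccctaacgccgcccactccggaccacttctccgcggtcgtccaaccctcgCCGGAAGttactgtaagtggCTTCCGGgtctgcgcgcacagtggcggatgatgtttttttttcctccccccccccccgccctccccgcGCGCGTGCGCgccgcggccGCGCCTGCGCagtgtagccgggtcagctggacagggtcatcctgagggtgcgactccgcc

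Positions were counted with the first transcribed base as 1 and without a position 0. In these windows the UQCRFS1 promoter held the NRF1 letters at position -31. The SDHD promoter held the NRF1 letters at -110, the ETS letters at -77 and the estrogen-related receptor letters at 12. UQCR11 held an E-box at -187, the NRF1 letters at -29 and -10 and the ETS letters at -117 and -97. The windows of CYCS, COX6B2, ATP5IF1 and NDUFB11 held none of the 5 motifs as spelled here. Of the 68 members with at least 1 window, the E-box letters were found in any window of 7 (10.3%), NRF1 in 17 (25%), ETS in 20 (29.4%), YY1 in 9 (13.2%) and estrogen-related receptor letters in 2 (2.94%). Counted in the same way per gene, the letters were found in 8.77%, 6.98%, 12.2%, 2.14% and 1.17% of all 27305 genes with a window, and in 12.6%, 13.2%, 21.8%, 4.52% and 0.810% of the 11110 tested genes with a window. Counted per window, they were in 7.26%, 5.78%, 10.3%, 1.75% and 0.951% of all 35116 windows. The E-box letters stood in 5 of 40 members called higher, 0 of 7 called lower and 2 of 18 not called. In the same order, the NRF1 letters stood in 10 of 40, 0 of 7 and 6 of 18, and the ETS letters in 15 of 40, 2 of 7 and 3 of 18. The YY1 letters stood in 3 of 40, 0 of 7 and 6 of 18, and the estrogen-related receptor letters in 2 of 40, 0 of 7 and 0 of 18. A match is a run of letters and was not tested as a binding site.

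Complex III and its partner cytochrome c held the largest rises. UQCRFS1 (ENSG00000169021.6, chr19:29205321-29213541, minus strand) encodes the Rieske iron-sulfur protein, which takes electrons from ubiquinol. It was measured at 74.1, 74.5, 89.9 and 73.6 CPM in OMO and at 185, 189, 206 and 197 CPM in OMO+DOX. Every OMO+DOX library lay above every OMO library, including OMO replicate 3, the highest of its group. The change was 2.49-fold (log2FC 1.31, SE 0.07, edgeR adjusted p = 8.69e-09).

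CYCS (ENSG00000172115.8, chr7:25120091-25125361, minus strand) encodes cytochrome c, the small protein that shuttles electrons from complex III to complex IV and that also takes part in apoptosis when released. OMO libraries held 53.3, 53.9, 61.7 and 53.9 CPM and OMO+DOX libraries 114, 126, 123 and 112 CPM, without overlap. The change was 2.13-fold (log2FC 1.09, SE 0.06, edgeR adjusted p = 1.42e-08). CYC1 (chr8:144095027-144097525, plus strand), which encodes cytochrome c1, the heme subunit of complex III that hands electrons to cytochrome c, stood at 102 ± 9.13 CPM in OMO and 102 ± 10.5 CPM in OMO+DOX (SD, n = 4). Its groups overlapped (log2FC 0.01, SE 0.08, edgeR adjusted p = 0.929), and its sign turned in 6 of 16 alternatives.

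Among the 10 members of complex III, 6 were higher, 1 was lower and 3 were not called, with a median log2FC of 0.25. The shares among all genes tested were 38.5% higher and 38.1% lower. UQCR10, a small subunit next to the Rieske protein, went from 47.5 ± 5.95 to 81 ± 6.56 CPM (log2FC 0.77, SE 0.09), and UQCRQ, a ubiquinone-binding subunit, from 40.0 ± 4.54 to 58.2 ± 3.86 CPM (log2FC 0.54, SE 0.08). Both were without overlap between the groups. The 2 core proteins had the same sign, with UQCRC2 at a log2FC of 0.23 (adjusted p = 0.00129) and UQCRC1 at 0.15 (adjusted p = 0.0517). UQCRC1 was not called but gained a call in 6 of 16 alternatives, and no difference between the 2 genes was tested. UQCRH, the acidic hinge protein at the cytochrome c docking side, was measured at 142, 158, 178 and 151 CPM in OMO and 129, 135, 143 and 145 CPM in OMO+DOX. These values overlapped (log2FC -0.19, edgeR adjusted p = 0.0287). The call was lost with library size only (log2FC -0.06) and without OMO replicate 2, OMO+DOX replicate 1 or OMO+DOX replicate 2 (log2FC -0.19, -0.16 and -0.18). The near copy UQCRHL had a log2FC of -0.10 (adjusted p = 0.306), and its share of the counts of both genes was 5.14% ± 0.20 in OMO and 5.43% ± 0.31 in OMO+DOX (two-sided exact permutation test, p = 0.143). Reads of these near-identical genes were divided by RSEM, so that each value is uncertain.

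**Figure D2:**
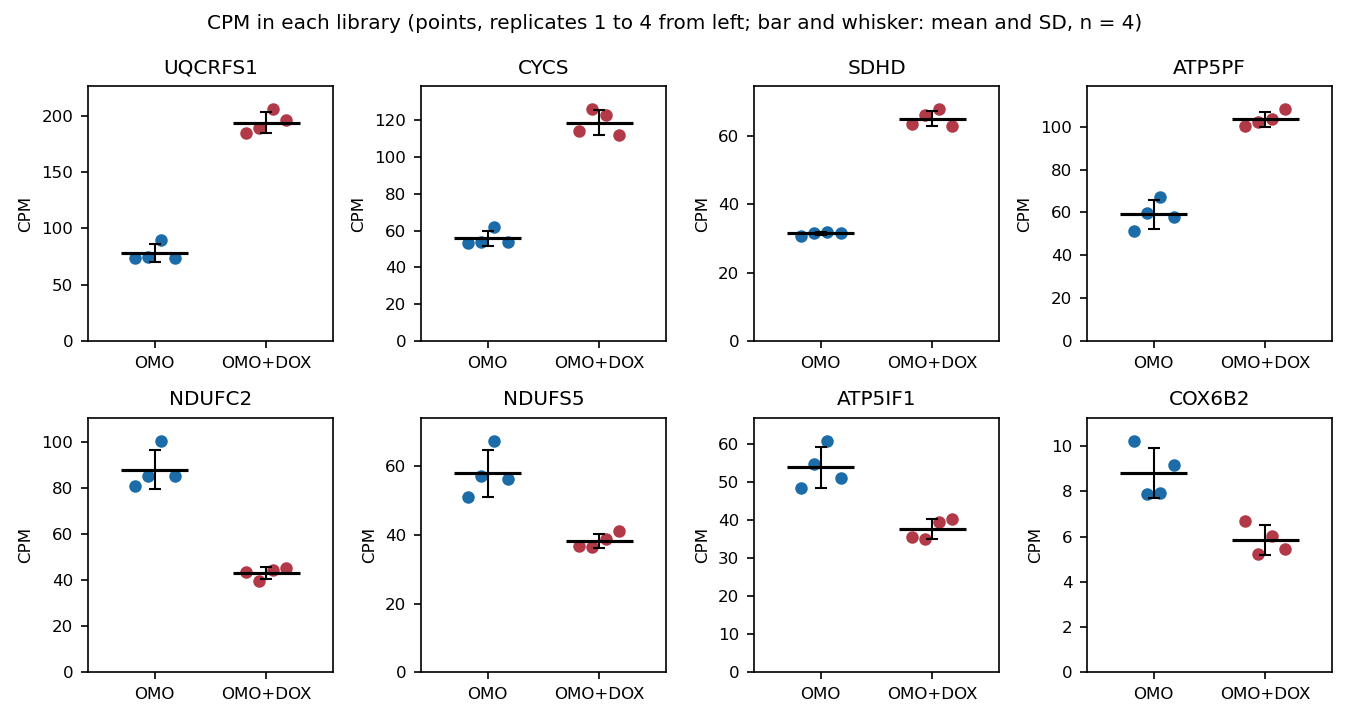
CPM (vertical axis, from 0) in each library for 4 members that rose and 4 that fell, with OMO in blue and OMO+DOX in red, a bar for the mean and a whisker for the SD (n = 4). The groups do not overlap in any of the 8 panels, for example 74 to 90 against 185 to 206 CPM for UQCRFS1 and 81 to 100 against 40 to 45 CPM for NDUFC2.

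Complex II, which is also the succinate dehydrogenase of the citric acid cycle and is encoded wholly in the nucleus, changed unevenly. SDHD (ENSG00000204370.12, chr11:112086773-112120013, plus strand), the smaller of its membrane anchors, was at 30.8, 31.5, 32 and 31.6 CPM in OMO and at 63.5, 66.0, 67.8 and 62.9 CPM in OMO+DOX. The OMO libraries lay within a narrow range and the groups did not overlap, with a change of 2.07-fold (log2FC 1.05, SE 0.04, edgeR adjusted p = 9.97e-10). The other anchor, SDHC, held 177, 179, 164 and 174 CPM in OMO and 195, 203, 205 and 191 CPM in OMO+DOX (log2FC 0.19, SE 0.05, adjusted p = 0.00212).

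SDHB, the iron-sulfur subunit, was measured at 45.8, 49.9, 56.0 and 47.9 CPM in OMO and 66.0, 70.1, 72.3 and 71.5 CPM in OMO+DOX (log2FC 0.49, SE 0.06, adjusted p = 2.24e-05). SDHA, the flavoprotein that oxidizes succinate, had 74.6, 73.8, 84.3 and 76.9 CPM in OMO and 78.3, 70.7, 78.2 and 77.3 CPM in OMO+DOX. Its groups overlapped (log2FC -0.02, SE 0.06, edgeR adjusted p = 0.713). Pseudogenes named after SDHA held counts equal to 54.5% of those of SDHA, the largest such share among the members, and the next was 1.77%. The median log2FC of the 4 genes was 0.34, and 3 were higher with DOX, where 38.5% of all genes tested were.

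Complex I is the largest of the complexes. Of its 36 members, 19 were higher with DOX, 4 were lower and 13 were not called, with a median log2FC of 0.23. Over all genes tested, 38.5% were higher and 38.1% lower. The matrix arm carries the flavin and the iron-sulfur clusters, and 6 of its 7 core members were higher and 0 lower, with a median log2FC of 0.39. The remaining one, NDUFS1, had a log2FC of 0.11 (adjusted p = 0.0642) although its groups did not overlap. Of 9 accessory members of that arm, 4 were higher and 0 lower, with a median of 0.15. The 20 accessory members of the membrane arm wrap the proton-pumping subunits encoded by mtDNA. Of them, 9 were higher (45%, near the 38.5% of all genes), 4 lower and 7 not called. They had the same rounded median of 0.15 and a range from -1.03 to 0.63. Without OMO replicate 3, the members higher and lower were 6 and 0 in the core, 5 and 0 among the accessory members of the matrix arm and 11 and 4 among those of the membrane arm. Of all genes, 39.7% were then higher and 39.4% lower. No test of the difference between the arms was made.

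Largest among the rises in complex I was that of NDUFS3 (chr11:47565336-47584562, plus strand), a core subunit of the matrix arm. Its OMO libraries held 56.8, 59.7, 68.9 and 58.8 CPM and its OMO+DOX libraries 90.1, 90.8, 99.9 and 100.1 CPM (log2FC 0.64, SE 0.07, edgeR adjusted p = 3.32e-06). NDUFB5, an accessory subunit of the membrane arm, went from 48.7 ± 4.23 to 75.6 ± 3.36 CPM (log2FC 0.63, SE 0.06). NDUFA1, a small membrane-arm subunit encoded on the X chromosome and needed for assembly, went from 48.2 ± 5.47 to 72.5 ± 4.26 CPM (log2FC 0.59, SE 0.08). The groups did not overlap for these 3 genes.

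The largest fall of any member was that of NDUFC2 (ENSG00000151366.13, chr11:78068304-78080219, minus strand), a membrane-arm accessory subunit. It was measured at 80.6, 85.2, 100.4 and 85.2 CPM in OMO and at 43.6, 39.5, 44.3 and 45.2 CPM in OMO+DOX. Every OMO+DOX library lay below every OMO library, and the gene was 2.04-fold lower with DOX (log2FC -1.03, SE 0.07, edgeR adjusted p = 9.43e-08). NDUFS5, an accessory subunit on the intermembrane-space side, held 51.2, 57.1, 67.5 and 56.2 CPM in OMO and 36.8, 36.5, 38.8 and 41.1 CPM in OMO+DOX (log2FC -0.60, SE 0.08, adjusted p = 2.47e-05). NDUFB11, another X-linked subunit of the membrane arm, went from 68.2 ± 8.5 to 50.6 ± 2.62 CPM (log2FC -0.43, SE 0.08), also without overlap.

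Complex IV (cytochrome c oxidase) had the highest median of the complexes, 0.49 on the log2FC scale. Its nuclear subunits surround a catalytic core encoded by mtDNA. Of 11 members tested, 9 were higher, COX6B2 was lower and COX5A was not called. For all genes tested the shares were 38.5% higher and 38.1% lower. NDUFA4, which was first described in complex I and is now counted with complex IV, held 48.8, 49.4, 59.0 and 49.5 CPM in OMO and 82.7, 79.3, 92.2 and 87.8 CPM in OMO+DOX (log2FC 0.73, SE 0.07, edgeR adjusted p = 1.89e-06). COX6C went from 117 ± 15.3 to 189 ± 9.90 CPM (log2FC 0.69, SE 0.08), and COX7A2, the isoform of COX7A found in most tissues, from 64.1 ± 8.09 to 101 ± 3.55 CPM (log2FC 0.66, SE 0.08). Neither gene overlapped between the groups.

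Little change was measured for COX7C and COX5A. COX7C held between 162 and 201 CPM in OMO and between 182 and 210 CPM in OMO+DOX, which overlap (log2FC 0.20, SE 0.07, edgeR adjusted p = 0.0307), and it lost its call when any library but OMO replicate 3 or OMO+DOX replicate 1 was left out (adjusted p between 0.0547 and 0.117, log2FC between 0.15 and 0.20). COX5A, which stood at 58.0 ± 6.65 and 60.1 ± 2.44 CPM, overlapped as well (log2FC 0.05, SE 0.07, adjusted p = 0.536). COX4I1, the usual isoform of subunit 4 and outside the symbol pattern, held 73.7, 85.4, 100.7 and 81.8 CPM in OMO and 113, 117, 129 and 131 CPM in OMO+DOX (log2FC 0.52, adjusted p = 0.000178).

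Tissue-restricted isoforms of complex IV were at or near zero. COX6A2 and COX7A1, the heart and skeletal muscle isoforms, had at most 4 and 1 counts in any library, and COX7B2 had 0 counts in all 8 libraries. COX8C, a testis isoform, had at most 4 counts, and ATP5MGL, a copy of ATP5MG of complex V, at most 3. These 5 members were below the low-count limit and were not tested. A count of 0 allows up to 3 counts, or between 0.0581 and 0.0748 CPM depending on the library, for counting error only. COX6B2, the isoform of COX6B best known from testis, was detected at 10.2, 7.90, 7.95 and 9.19 CPM in OMO and at 6.70, 5.23, 6.04 and 5.46 CPM in OMO+DOX. These values did not overlap (log2FC -0.59, SE 0.11, edgeR adjusted p = 0.000379), while the common isoform COX6B1 was higher (log2FC 0.49, adjusted p = 0.000215).

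Complex V had 11 members higher, 3 lower and 5 not called of 19 tested, with a median log2FC of 0.23. All genes tested were 38.5% higher and 38.1% lower. The head of the enzyme, where ATP is made, is a ring of alternating alpha and beta subunits. The genes of these subunits moved in opposite directions. ATP5F1B (chr12:56638175-56646068, minus strand), the catalytic beta subunit, held 593, 604, 667 and 599 CPM in OMO and 932, 913, 1016 and 987 CPM in OMO+DOX (log2FC 0.64, SE 0.05, edgeR adjusted p = 4.6e-07). ATP5F1A (chr18:46080248-46104334, minus strand), the alpha subunit, held 726, 758, 817 and 740 CPM in OMO and 629, 655, 687 and 655 CPM in OMO+DOX (log2FC -0.21, SE 0.05, adjusted p = 0.00207). In neither gene did the groups overlap, and with library size only ATP5F1A kept its sign but not its call (log2FC -0.08, adjusted p = 0.0947). ATP5F1B lies outside the rule for named genes and was chosen after its values were seen.

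In the peripheral stalk, which holds the head still, 3 of 4 members were higher and ATP5PD had a log2FC of 0.01. ATP5PF, the coupling factor 6 subunit of the stalk, was measured at 51.2, 59.9, 67.4 and 57.9 CPM in OMO and 100.2, 102, 104 and 108 CPM in OMO+DOX. This was the largest rise in complex V, without overlap (log2FC 0.81, SE 0.07, edgeR adjusted p = 9.07e-07). Of 5 tested accessory subunits of the membrane part, 4 were higher. Among them ATP5MD went from 28.6 ± 2.91 to 46.4 ± 2.20 CPM (log2FC 0.70, SE 0.07), and ATP5ME, which takes part in the dimerization of the enzyme, from 43.7 ± 7.63 to 69.2 ± 4.12 CPM (log2FC 0.66, SE 0.10).

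ATP5IF1 (chr1:28236109-28246906, plus strand) encodes the inhibitor that blocks ATP hydrolysis by the enzyme when the proton gradient fails. It held 48.6, 54.8, 60.9 and 51.2 CPM in OMO and 35.6, 35.1, 39.5 and 40.4 CPM in OMO+DOX. All OMO+DOX libraries were below all OMO libraries (log2FC -0.52, SE 0.07, edgeR adjusted p = 5.46e-05). The read-through transcript ATP5MF-PTCD1 shares sequence with ATP5MF, had a mean below 5 CPM in both groups and was not called (log2FC 0.02, adjusted p = 0.879).

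Subunit c, the proton-carrying ring, is encoded by 3 genes whose mature proteins are the same and which differ in their import sequences. The split of their counts moved between the groups. ATP5MC2 held 61.1%, 60.7%, 61.2% and 60.9% of the counts of the 3 genes in OMO and 47.8%, 48.5%, 47.0% and 48.5% in OMO+DOX. Its libraries were close within each group and far apart between them, a fall by 13.0 percentage points. ATP5MC1 rose from 12.0% ± 0.52 to 17.9% ± 0.80 and ATP5MC3 from 27.0% ± 0.63 to 34.2% ± 0.54 (SD, n = 4), also without overlap. In two-sided exact permutation tests each had p = 0.0286, the smallest that 4 against 4 libraries can give, and 0.0343 after Benjamini-Hochberg adjustment over 6 shares. On the CPM scale, ATP5MC2 went from 303 ± 28.7 to 231 ± 15.6 (log2FC -0.39), ATP5MC1 from 59.8 ± 8.12 to 86.2 ± 9.66 (log2FC 0.53) and ATP5MC3 from 134 ± 9.11 to 164 ± 10.01 (log2FC 0.29).

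A pair of other isoform shares fell with DOX. COX6B2 held 15.5%, 10.97%, 9.60% and 12.8% of the counts of COX6B1 and COX6B2 in OMO and 7.30%, 5.85%, 5.88% and 5.42% in OMO+DOX. NDUFA4L2, a hypoxia-responsive relative of NDUFA4 that falls outside the symbol pattern, held 10.6%, 9.70%, 10.9% and 8.94% of the counts of both genes in OMO and 1.46%, 1.15%, 1.24% and 1.55% in OMO+DOX. Neither overlapped (exact permutation p = 0.0286, adjusted p = 0.0343 for each). NDUFA4L2 itself was 4.93-fold lower with DOX, from 217 to 356 counts per library in OMO to between 37 and 63 in OMO+DOX. COX4I2, a lung and hypoxia isoform of subunit 4, had at most 20 counts in a library and its share was not tested.

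**Figure D3:**
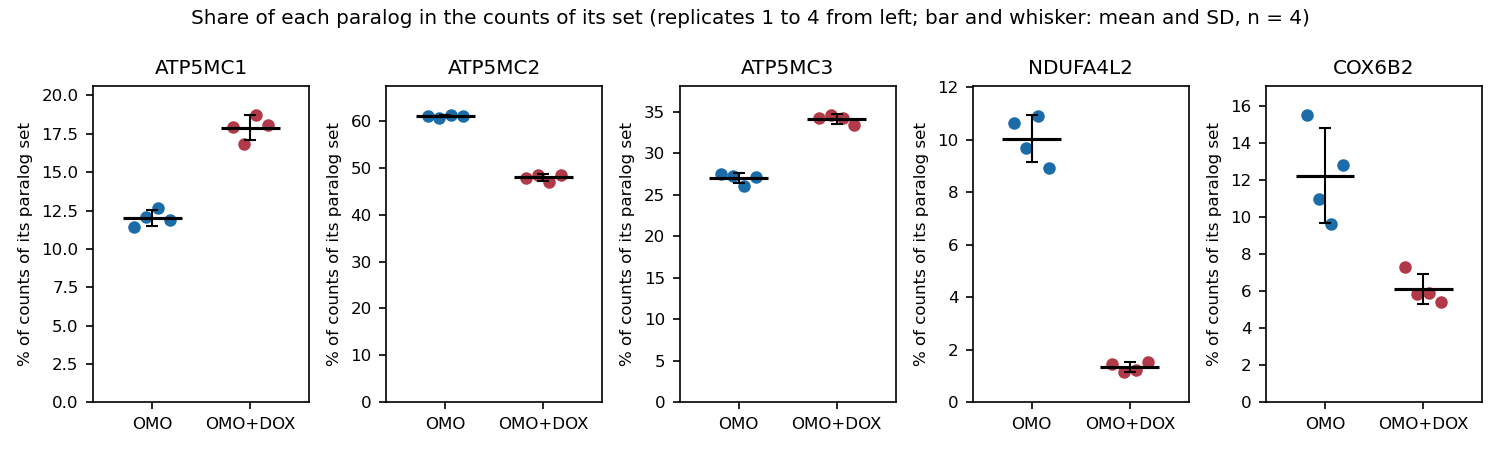
Share (percent, vertical axis from 0) of each gene in the summed counts of its paralog set in each library, with OMO in blue and OMO+DOX in red, a bar for the mean and a whisker for the SD (n = 4). ATP5MC2 falls from about 61.0% to 47.95% while ATP5MC1 and ATP5MC3 rise, and NDUFA4L2 and COX6B2 fall, without overlap in any panel.

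Summed over members, the subunit RNAs took up 6972, 7433, 8361 and 7236 CPM in OMO and 8554, 8622, 9259 and 9215 CPM in OMO+DOX. The highest OMO library, replicate 3, was below the lowest OMO+DOX library, and the mean rose by 18.8%. By complex the summed CPM was higher by 11.6% for complex I, 23.3% for II, 23.9% for III, 36.2% for IV and 14.4% for V. Abundant genes weigh most in such sums. ATP5F1B (616 to 962 CPM) held most of the net rise of complex V. UQCRFS1 (78.0 to 194 CPM) and UQCRB (518 to 624 CPM) held most of that of complex III. For complexes I and V the sum in OMO replicate 3 (2328 and 3205 CPM) overlapped the range of OMO+DOX, which started at 2218 and 3175 CPM. In bulk RNA, a change in the mix of cells and a change per cell cannot be told apart.

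RNA of the 13 subunits encoded by mtDNA was lower in sum with DOX. Their summed CPM fell from 45861 ± 2506 to 34360 ± 1289 (SD, n = 4), by 25.1%, without overlap. MT-CO1, the catalytic subunit of complex IV, was the largest single part of that sum in OMO and made up most of its fall. It was 2.67-fold lower (15673 to 5868 CPM, log2FC -1.42, edgeR adjusted p = 1.33e-10). Of the 13 genes, 3 were higher, 5 lower and 5 not called, with a median log2FC of 0.02. MT-ND6, the gene on the opposite strand from the rest, rose most (log2FC 1.23), followed by its neighbour MT-ND5 (log2FC 0.97), and whether reads were counted by strand is not given. Transcripts of mtDNA carry short or no poly(A) tails and the libraries were polyA selected, and the part of selection in these values was not tested.

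**Figure D4:**
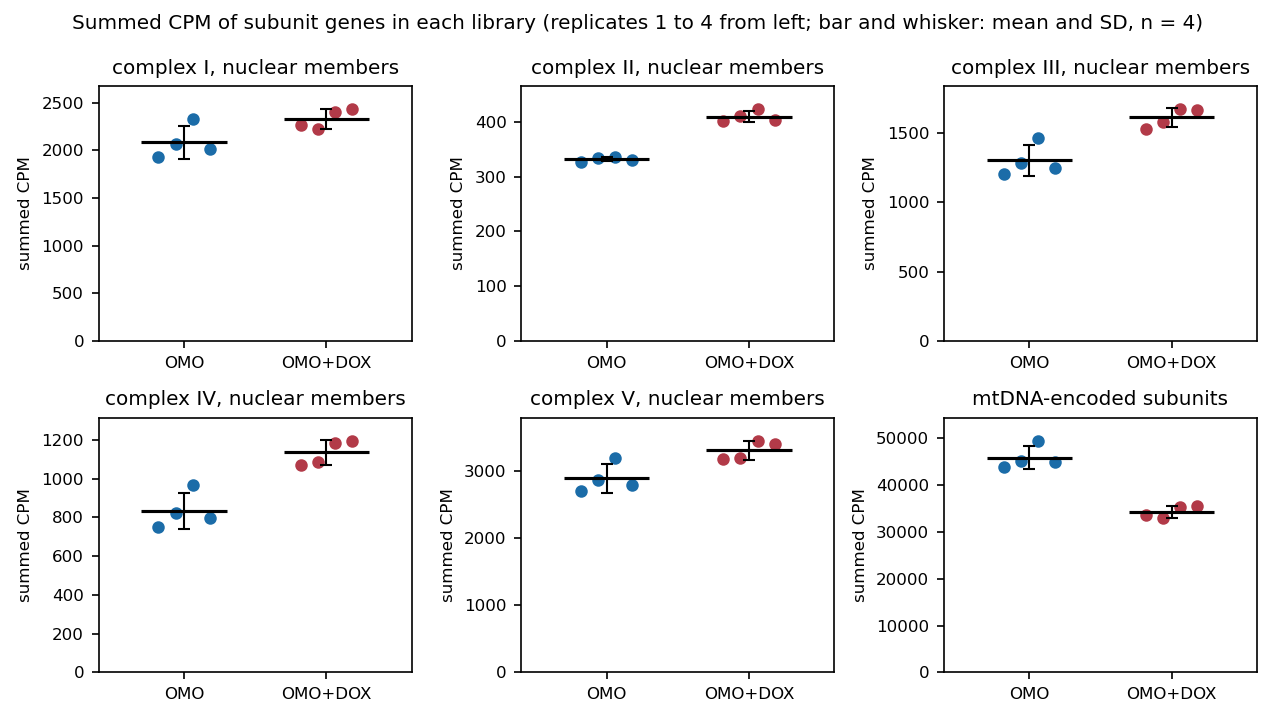
Summed CPM (vertical axis, from 0) of the nuclear members of each complex and of the mtDNA-encoded subunits in each library, with OMO in blue and OMO+DOX in red, a bar for the mean and a whisker for the SD (n = 4). The nuclear sums are higher with DOX in the mean of every complex, and the mtDNA sum is lower, 34360 against 45861 CPM. Most of that fall is MT-CO1.

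Genes that build and feed the complexes were counted from lists of their own. Beside these counts, 38.5% of all genes tested were higher and 38.1% lower. Assembly factors of complex I were 7 higher and 6 lower of 18, with a median log2FC of -0.03, and ran from NDUFAF5, which modifies a core subunit (log2FC 2.07, 4.2-fold higher), to ACAD9 (log2FC -0.64). Of 22 assembly factors of complex IV, 5 were higher and 3 lower, with a median of 0.06. COX10, which makes heme for complex IV, was 3.91-fold higher (log2FC 1.97), and COA4 was lowest (log2FC -0.76). For complex II, 2 of 4 factors were higher (most SDHAF4, log2FC 0.32) and 2 lower (most SDHAF3, log2FC -0.33). For complex III, 2 of 6 were higher and 2 lower, and the factors that mature and insert the Rieske protein stood at both ends, LYRM7 at a log2FC of 0.75 and BCS1L at -0.65. For complex V, 1 of 5 was higher (ATPAF2, log2FC 0.56) and 2 lower (most TMEM70, log2FC -0.32).

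The citric acid cycle and pyruvate dehydrogenase, which supply the electrons, had 9 of 17 genes higher and 2 lower, with a median log2FC of 0.28. Across all genes tested, 38.5% were higher and 38.1% lower. IDH3A, the catalytic subunit of the NAD-dependent isocitrate dehydrogenase, was 2.76-fold higher (log2FC 1.46), and its partner IDH3B was lower (log2FC -0.40). NDUFAB1, the acyl carrier protein of complex I that the symbol pattern leaves out, was at 42.7 and 44.2 CPM (log2FC 0.05, adjusted p = 0.533).

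Among 10 regulators of respiratory gene transcription, 3 were higher, 4 lower and 3 not called, with a median log2FC of 0.07. All genes tested were 38.5% higher and 38.1% lower. PPARGC1B, a coactivator of respiratory genes that works with estrogen-related receptors, was measured at 19.6, 17.2, 13.8 and 18.2 CPM in OMO and 292, 263, 278 and 251 CPM in OMO+DOX. That 15.8-fold difference (log2FC 3.98, SE 0.10, edgeR adjusted p = 1.76e-11) was beyond the change of any subunit gene, and the gene met the published rule. ESRRA, an estrogen-related receptor, was 3.34-fold higher (13.3 to 44.5 CPM, log2FC 1.74), while GABPB1 was lowest (log2FC -0.32). ESRRA was not among the genes the naming rule gave and was chosen after its values were seen. In the rest of the list, GABPA was higher (log2FC 0.38), and NRF1 (-0.29), PPRC1 (-0.20) and YY1 (-0.11) were lower. PPARGC1A (0.11), TFAM (0.12) and TFB2M (0.03) were not called.

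**Figure D5:**
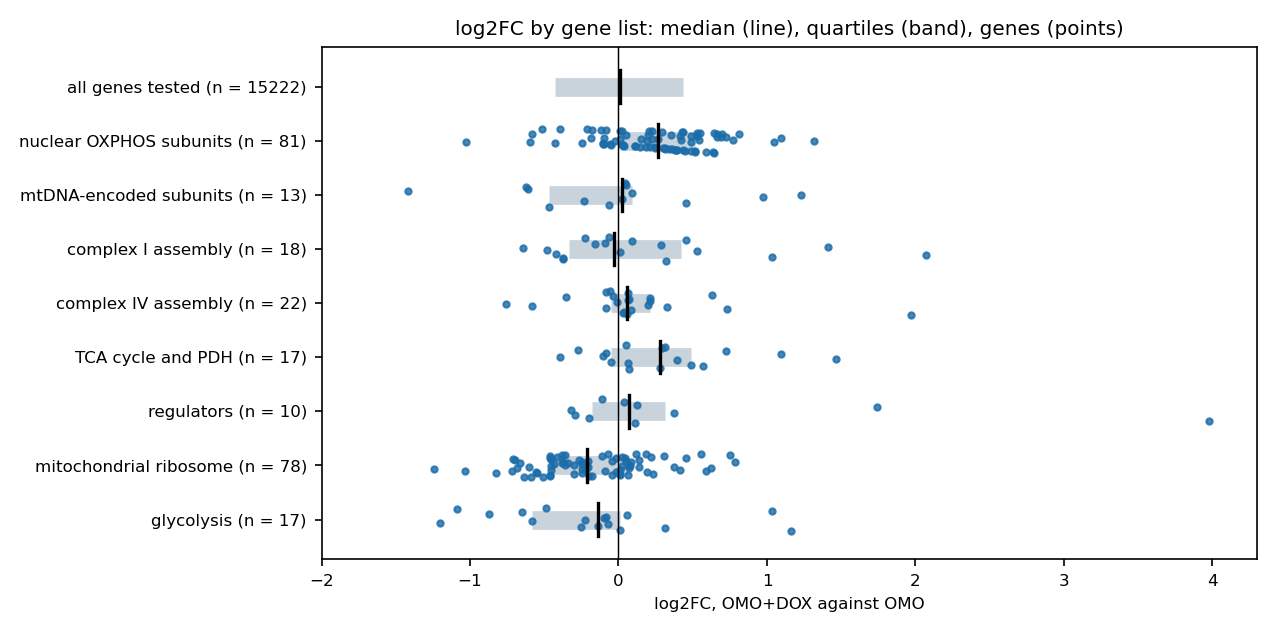
log2FC (OMO+DOX against OMO, horizontal axis) for all genes tested, the 81 nuclear subunits and lists of related genes, with the median as a line, the lower to upper quartile as a band and single genes as points except for all genes. The subunits' median lies at 0.27 and that of the citric acid cycle at 0.28, the mitochondrial ribosome lies at -0.21, and PPARGC1B is the point farthest right at 3.98.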

How the data were processed

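RNA-Seq libraries of 4 untreated (OMO) and 4 DOX-treated (OMO+DOX) replicates of D283-OMO cells were grouped by their titles. Reads of a stranded polyA+ kit were passed by the authors through Trim Galore, STAR (GENCODE release 32, GRCh38) and RSEM, and the authors deposited expected counts per gene, which are not normalized. RSEM divides reads that match several genes, and 49 tested members had a fractional count in at least 1 library. Whether counting used strand is not given in the sources used here.

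The expected counts, rounded, were kept for 15222 genes above 1 CPM in 4 or more of 8 libraries and tested with edgeR 4.0.16 in R 4.3.3 (TMM, quasi-likelihood test, Benjamini-Hochberg adjustment over all genes tested, no covariates), after a run on simulated data. A call is an adjusted p below 0.05. The SE is the absolute log2FC over the square root of the F statistic. Paralog shares were compared with two-sided exact permutation tests in scipy 1.17.1. Totals of 38390649 to 54020451 counts gave each tested member at least 167 counts in every library, and counting intervals and floors cover counting error only. Symbols, types and coordinates come from GENCODE 29, which holds 99.3% of the tested genes by identifier, and promoter windows from RefSeq.

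The members, gene lists and tests were chosen with earlier results of these data known. Members named with values are all of complex II, CYCS, CYC1, UQCRFS1, ATP5IF1, the subunit c genes, NDUFA4, the 3 highest and 3 lowest by log2FC in complexes I, III, IV and V, and members below the low-count limit. Of each list except the mitochondrial ribosome, the genes with the highest and lowest log2FC are named, as are COX4I1, NDUFAB1 and the paralogs in the shares. UQCRB, UQCRC1, UQCRC2, UQCR11, NDUFS1, NDUFB3, NDUFB10, ATP5F1B, ATP5PD, ATP5PO, ATP5MF-PTCD1, MT-ND5, ESRRA, OTX2, NPR3, GABRA5 and EYS lie outside that rule and were picked with their values in view. The other regulators of respiratory gene transcription were added later, so that the whole list is given. Mitochondrial ribosomal genes were taken by symbol. Alternatives were DESeq2 size factors, library size only, no mtDNA genes, the Wald test of DESeq2 1.42.0, other low-count filters, a replicate block, pseudogene counts added, shares per kilobase, and each library left out in turn. Counts by complex and of groups that do not overlap, without OMO replicate 3, were added after seeing the data.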

Additional observations from a re-analysis of the deposited data

Results flagged for a closer look

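In 8 of 90 groups of 4 values examined, a single library stood apart from the other 3 by Dixon's criterion, where chance at 1 in 20 gives 4.5. In OMO, replicate 3 was the high library for 6 members. It held 89.9 CPM of UQCRFS1 (the others 73.6 to 74.5), 61.7 CPM of CYCS (53.3 to 53.9), 59.0 CPM of NDUFA4 (48.8 to 49.5), 55.0 CPM of NDUFB5 (46.2 to 47.3), 67.9 CPM of COX5A (53.7 to 55.6) and 32.9 CPM of ATP5MD (26.8 to 27.6). For all of these except COX5A, that library was still below the lowest OMO+DOX library.

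In OMO+DOX, replicate 2 was low for SDHA at 70.7 CPM, where the others held 77.3 to 78.3 CPM. Replicate 4 of the same group was high for the UQCRHL share at 5.89%, where the others held 5.26% to 5.30%.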

How the results depend on the processing

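Over 16 alternatives, 53 of 58 called members kept their call and sign in every one, 5 (NDUFB3, COX7C, NDUFB10, ATP5F1A and UQCRH) lost the call in at least 1 (NDUFB3 without a filter or any of 6 libraries, with adjusted p up to 0.116, and NDUFB10 with library size only or without OMO+DOX replicate 2, with adjusted p up to 0.189), and 0 called members changed sign. Of 23 members not called, 11 gained a call in at least 1. Members called higher and lower were 49 and 9 with DESeq2 size factors, without mtDNA genes or with pseudogene counts added, 50 and 9 by DESeq2's Wald test, 49 and 10 without a filter, and 51 and 9 with more than 4 libraries required. Leaving out a library gave 47 to 54 higher and 7 to 10 lower, with medians of 0.22 to 0.33.

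Scaling by library size only moved the median log2FC of all genes to 0.14 and the members' calls to 58 higher and 6 lower. The shares of all genes moved too, to 47.0% higher and 31.0% lower. With an absolute log2FC above 0.5, 33 were then higher and 1 lower, and the share of all genes at that limit was not counted. The medians became 0.40 for all members, 0.35 for complex I, 0.47 for II, 0.38 for III, 0.62 for IV and 0.35 for V. As with TMM, 61 of 81 members lay above the all-gene median. SDHA turned to 0.10 and UQCRHL to 0.028 under this scaling. SDHA also turned to 0.017 without OMO replicate 3 and to 0.01 without OMO+DOX replicate 2, in a range from -0.054. CYC1 turned to -0.019 without a filter and ranged from -0.039 to 0.070 with a library left out. The cause was not tested.

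With a library left out, the share tests had a smallest possible p of 0.0571 and could not pass the threshold. The changes in percentage points then ranged from 5.60 to 6.24 for ATP5MC1, -13.2 to -12.7 for ATP5MC2, 6.83 to 7.39 for ATP5MC3, -9.07 to -8.41 for NDUFA4L2 and -6.98 to -5.01 for COX6B2. Same-numbered libraries deviated together with correlations of 0.16, 0.14, 0.24 and -0.18. Differently numbered libraries were not set beside these, so the values do not decide whether the numbers pair the libraries. The replicate block gave 52 members higher and 9 lower with a median of 0.27, where 39.2% and 38.4% of all genes were higher and lower. Reads shared with pseudogenes limit SDHA most, and low counts limit COX6B2, UQCRHL and ATP5MF-PTCD1.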

Other observations

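For the lists below, the shares among all genes tested were 38.5% higher and 38.1% lower. Mitochondrial ribosomal proteins, which make the mtDNA-encoded subunits, were 13 higher and 42 lower of 78 genes, with a median log2FC of -0.21. Glycolysis had 3 of 17 genes higher and 9 lower, with a median of -0.14, and ran from HK1, which phosphorylates glucose (log2FC 1.16), to ALDOA, the aldolase (log2FC -1.20). Of 5 tested genes for other electron donors to ubiquinone, 1 was higher and 4 were lower. These included both subunits of the electron transfer flavoprotein, of which ETFB fell most (log2FC -0.80), while ETFDH, which passes its electrons on to ubiquinone, rose (log2FC 0.54).

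Members have short transcripts, with a median longest transcript of 1584 nt against 3519 nt over all genes tested. Other protein-coding genes with a longest transcript under 1500 nt (890 genes) had a median log2FC of -0.18, with 213 higher and 432 lower. Other protein-coding genes at or above the members' median CPM (3410 genes) had a median of -0.09, with 1104 higher and 1578 lower.

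ATP5PO, a peripheral stalk subunit of complex V, bore the older symbol ATP5O, under which it served as the reference transcript for qRT-PCR in the study. In the libraries it held 105, 116, 136 and 107 CPM in OMO and 159, 172, 175 and 173 CPM in OMO+DOX, without overlap (log2FC 0.55, SE 0.08, edgeR adjusted p = 4.73e-05). It was chosen after its values were seen.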
